A study of Mus musculus with 12 samples.

Results

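Ricolinostat T cells were set against vehicle T cells from mouse lung tumours, 2 libraries of each, and these 4 libraries are all those titled as T cells of either treatment among the 12 libraries of the study. The tumour-bearing mice belong to a genetically engineered model that the labels call KrasTrp53, on a mixed background, and all the groups share this model. They received ricolinostat or vehicle. The other libraries are from macrophages of these treatments and from T cells and macrophages of mice given JQ1. T cells and macrophages were then purified out of the tumour suspensions, and NanoString counting of their RNA covered 770 immune genes. Doses, treatment times, ages, the alleles of the model, what drives them and the number of animals behind a library are not given in the sources used here.

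Ricolinostat is a small molecule that blocks the catalytic zinc site of histone deacetylases and is used mainly for its action on HDAC6, a cytoplasmic enzyme that removes acetyl groups from tubulin and other proteins. Histone deacetylases of the nucleus take acetyl groups off chromatin, and their inhibition can raise or lower transcription of many genes. In a T cell, the antigen receptor and its CD3 chains pass a signal to the kinases Lck and Zap70, and CD28 and ICOS add the costimulation needed for a full response. HDAC6 is not among the 770 genes, and an enzyme inhibitor need not change the message of its target, so no gene of the panel checks the treatment labels.

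The deposited values are normalised signals on a linear scale, and differences are given as log2 of signal plus 1, so that 1 unit is a doubling. Total signal corresponded to 1929700 and 1454600 counts above background in the ricolinostat libraries, against 1881100 and 1876700 in the vehicle libraries. The libraries carried T cell genes but also much macrophage signal, under vehicle as much as the macrophage libraries, so their label holds only in part. All 10 measured genes of the T cell receptor complex and its kinases were above 20 in each of these T cell libraries, against 4 and 5 in ricolinostat macrophages and 3 and 5 in vehicle macrophages. Cd3g, a chain of the antigen receptor complex, had 577 and 45.6 in ricolinostat T cells, 721 and 934 in vehicle T cells, and at most 7.41 in the 4 macrophage libraries of the same treatments. The JQ1 T cell libraries, which enter the fits for their spread and for the choice of tested genes, had only 10.1 and 1.55. Of the T cell fits, only the pooled one was repeated without them, over the same genes. The T cell libraries also held macrophage transcripts. The lysosomal enzyme gene Lyz2 and the chitinase-like gene Chil3, both abundant in lung macrophages, together made up 33.5% and 12.8% of the signal in ricolinostat T cells, against 34.9% and 31.4% in vehicle T cells. In macrophages the same share was 31.9% and 13.2% under ricolinostat, against 32.7% and 27.5% under vehicle. The summed signal of 21 macrophage identity genes was 1526120 and 1547290 in vehicle T cells, and 1447690 and 1424090 in vehicle macrophages. Under ricolinostat it was lower in T cells, at 1332410 and 995720, than in macrophages, at 1500130 and 1391100. In such bulk RNA, fewer cells of a type and less RNA per cell cannot be told apart.

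The second ricolinostat library, which the labels number DA_33, stood apart from every other T cell library before any treatment comparison. Ricolinostat replicate 1 (DA_12) ranked the 770 genes almost as the vehicle libraries did, with Spearman correlations across genes of 0.980 and 0.979 to them, while the vehicle libraries had 0.985 between themselves. Ricolinostat replicate 2 had 0.861 and 0.860 to the vehicle libraries and 0.855 to ricolinostat replicate 1. Genes are not independent replicates, so these values carry no test.

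The departure reached the 20 housekeeping genes, which the panel includes because their levels usually hold steady. Tubb5, a beta-tubulin, had 3579 and 58024 in ricolinostat T cells, against 4097 and 4008 in vehicle T cells. Eef1g, a subunit of the elongation factor of translation, had 6872 and 334 in ricolinostat T cells, against 7040 and 6636 in vehicle T cells. In both genes replicate 1 lay close to vehicle and replicate 2 far from it, in opposite directions. Hdac3, a nuclear histone deacetylase and itself in the housekeeping set, had 1092 and 136 in ricolinostat T cells, against 1064 and 1056 in vehicle T cells. Over the 20 genes the difference from the vehicle mean had an SD of 0.153 in replicate 1 and 2.10 in replicate 2, where it ran from -4.35 to 3.84; between the vehicle libraries the SD was 0.181. The geometric means of the 20 genes were nonetheless alike, at 1929 and 2051 in ricolinostat T cells and 1939 and 2025 in vehicle T cells, so no single scaling factor brings replicate 2 back.

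**Figure D1:**
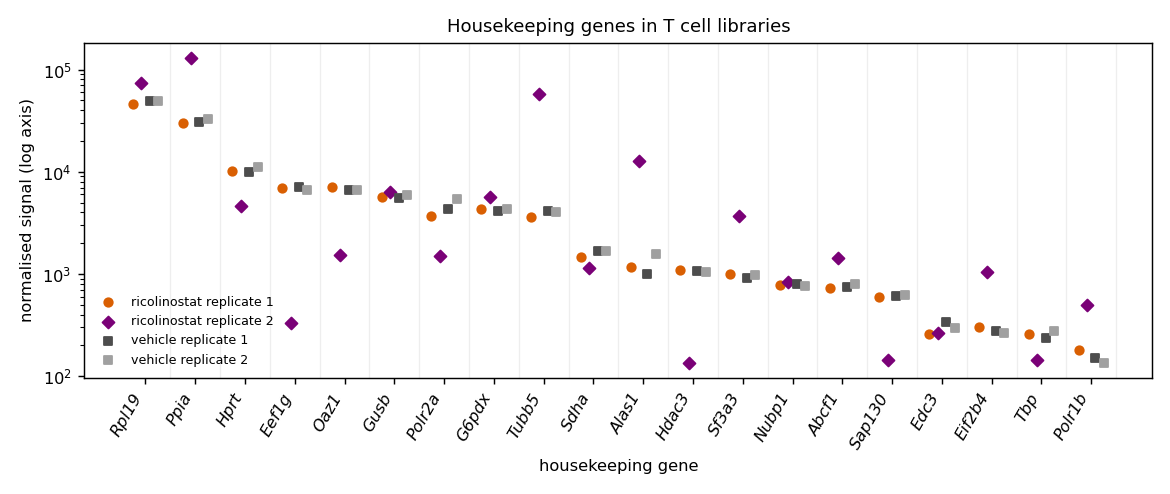
Normalised signal (log axis) of the 20 housekeeping genes in the 4 T cell libraries, ordered by vehicle level. Ricolinostat replicate 1 lies on or near the vehicle points for all 20 genes, whereas replicate 2 ranges from 4.35 log2 units below the vehicle mean (Eef1g) to 3.84 above it (Tubb5).

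Among the 630 genes tested (those above a signal of 20 in at least 2 of the 6 T cell libraries, the 20 housekeeping genes left out), the SD of the difference from the vehicle mean was 0.684 in replicate 1 and 2.14 in replicate 2. The vehicle libraries differed from each other with an SD of 0.646. A difference from the mean of 2 libraries is expected to vary less than a difference between 2 single libraries. Replicate 1 was therefore spread at least as widely as the vehicle libraries between themselves, and replicate 2 far more widely. Over the 401 tested genes above 100 in all 4 vehicle libraries of T cells and macrophages, the SD was 0.400 in replicate 1. It was 2.17 in replicate 2 and 0.316 between the vehicle T cell libraries. Of the 630 genes, 75 in replicate 1 lay more than 1 log2 unit from the vehicle mean, against 420 in replicate 2. In 229 of the 630 genes the ricolinostat libraries lay on opposite sides of both vehicle libraries. Each result below is therefore given for each ricolinostat library apart.

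**Figure D2:**
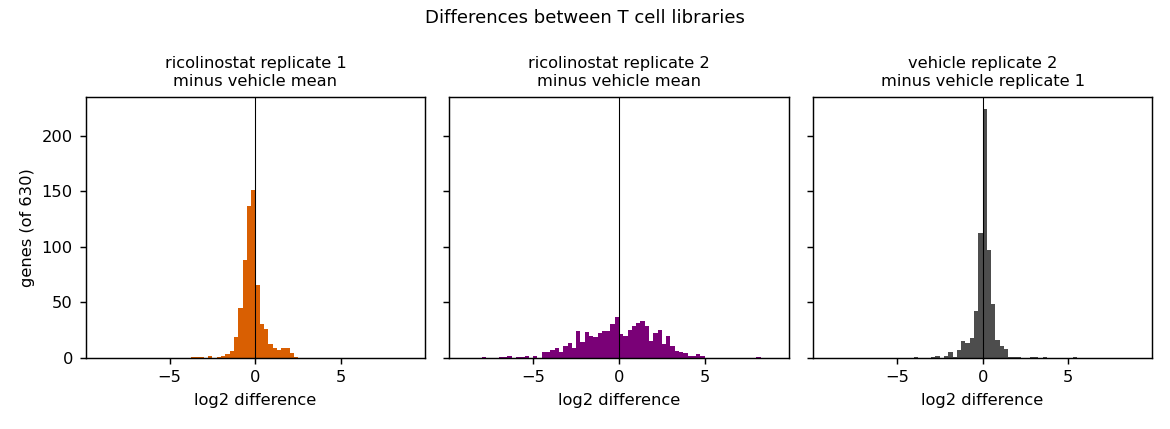
Histograms of the log2 difference over 630 tested genes for ricolinostat replicate 1 and replicate 2, each minus the vehicle mean, and for vehicle replicate 2 minus vehicle replicate 1. The SDs are 0.684, 2.14 and 0.646, and the middle distribution is the wide one.

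The first question was whether ricolinostat changed immune transcripts in tumour T cells at all. With both ricolinostat libraries together, limma (moderated variances over the 6 T cell libraries, Benjamini-Hochberg adjustment) called none of the 630 genes, which is 0% of them; 18 had an unadjusted p under 0.05 and the smallest adjusted p was 0.657. Without the JQ1 libraries limma again gave no call, with 10 unadjusted p under 0.05. The median SE of a log2 difference was 0.731, so this comparison could show only large changes. A permutation of 2 libraries against 2 cannot give a two-sided p below 0.333. Replicate 1 alone against vehicle also gave no call among the 630 (0%), with 79 unadjusted p under 0.05 and a smallest adjusted p of 0.371. Replicate 2 alone gave 375 calls (59.5% of the genes tested), 203 higher (32.2%) and 172 lower (27.3%). These last 2 fits compare a single library with a group, not treatments, and assume that the lone library varies like the vehicle and JQ1 libraries.

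Both ricolinostat libraries lay above both vehicle libraries in 60 of the 630 genes (9.52%) and below both in 181 (28.7%), together 241 (38.3%). Housekeeping genes were separated in this way too, with 4 of the 20 above both vehicle libraries and 4 below both. The surplus of lower genes among the 630 goes with the level of replicate 1: 457 genes (72.5%) were below the vehicle mean in replicate 1 and 312 (49.5%) in replicate 2. The median difference over the 630 genes was -0.23 in replicate 1 and 0.05 in replicate 2, and centring each library on its median moved these to -0.13 and 0.18. Centring also changed the separated genes to 91 higher and 138 lower. Values below are as deposited, and the median of a list is to be read against those of all tested genes.

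The genes with the widest gap between the nearest ricolinostat and the nearest vehicle library were led upwards by H2-Q2, a nonclassical class I gene of the mouse major histocompatibility complex. H2-Q2 had 164 and 781 in ricolinostat T cells, against 30.6 and 40.6 in vehicle T cells, a pooled log2 difference of 3.31 (SE 0.822, adjusted p = 0.657). Muc1, a mucin of epithelial surfaces, had 4890 and 5705 in ricolinostat T cells, against 1097 and 1621 in vehicle T cells. Both genes were well above vehicle in each ricolinostat library, and Muc1 was the more even of the pair. Dpp4, the peptidase CD26 of T cell and epithelial surfaces, had 1882 and 4833 in ricolinostat T cells, against 604 and 667 in vehicle T cells. Col4a1, a collagen of basement membranes, had 1156 and 5518 in ricolinostat T cells, against 414 and 402 in vehicle T cells. Dock9, an exchange factor for the GTPase Cdc42, had 1030 and 1862 in ricolinostat T cells, against 397 and 326 in vehicle T cells. In each of these 3 genes replicate 1 lay above both vehicle libraries and replicate 2 higher still. Smpd3, a neutral sphingomyelinase, had 183 and 240 in ricolinostat T cells, against 58.0 and 74.5 in vehicle T cells. The complement gene C6 had 368 and 273 in ricolinostat T cells, against 115 and 95.6 in vehicle T cells.

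Serpinb2, an inhibitor of plasminogen activators, stood at or below 20 in both vehicle libraries (9.07 and 17.3) and had 50.5 and 88.9 in ricolinostat T cells, at least 3.24-fold higher. Il7, a survival cytokine of T cells made mainly by stromal cells, had 22.9 and 52.8 in ricolinostat T cells, against 11 and 2.51 in vehicle T cells, at least 1.71-fold higher. The Notch ligand Dll4 had 74.7 and 67.3 in ricolinostat T cells, against 34.5 and 13.1 in vehicle T cells. These 3 genes are low ones, and none of the 10 genes with the widest upward gap passed the pooled test.

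Downwards, Slamf7, an adhesion receptor of lymphocytes and other leukocytes, led with 5.68 and 3.60 in ricolinostat T cells, against 56.0 and 72.3 in vehicle T cells, at least 3.08-fold lower (adjusted p = 0.657). Cd27, a costimulatory receptor of naive and memory T cells, had 24.7 and 27.6 in ricolinostat T cells, against 65.8 and 66.0 in vehicle T cells. Cd28 had 21.2 and 24.0 in ricolinostat T cells, against 54.1 and 49.1 in vehicle T cells. In Cd27 and Cd28 the ricolinostat libraries lay close together, at pooled log2 differences of -1.30 (SE 0.589) and -1.16 (SE 0.501). Icos, the third costimulatory receptor of this set, had 376 and 60 in ricolinostat T cells, against 778 and 883 in vehicle T cells. Cd53, a tetraspanin of leukocytes, had 311 and 56.4 in ricolinostat T cells, against 590 and 633 in vehicle T cells. Csf1, the macrophage growth factor, had 157 and 16.8 in ricolinostat T cells, against 328 and 470 in vehicle T cells. In Icos, Cd53 and Csf1 the gap to vehicle was about 1 log2 unit in replicate 1 and more than 3 in replicate 2.

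Cxcr1, a chemokine receptor of neutrophils, had 2315 and 550 in ricolinostat T cells, against 4666 and 5449 in vehicle T cells. Timd4, a phosphatidylserine receptor of macrophages, had 7.41 and 34.8 in ricolinostat T cells, against 69.7 and 80.8 in vehicle T cells. Ccl8, a chemokine, had 5.68 and 2.36 in ricolinostat T cells, against 32.6 and 47.0 in vehicle T cells, at least 1.91-fold lower. Twist1, a transcription factor of mesenchymal cells, had 16 and 3.60 in ricolinostat T cells, against 34.5 and 51.2 in vehicle T cells, at least 2.05-fold lower. None of the 10 widest downward gaps passed the pooled test, and Cxcr1 alone among these last 4 stood far above the floor of 20.

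**Figure D3:**
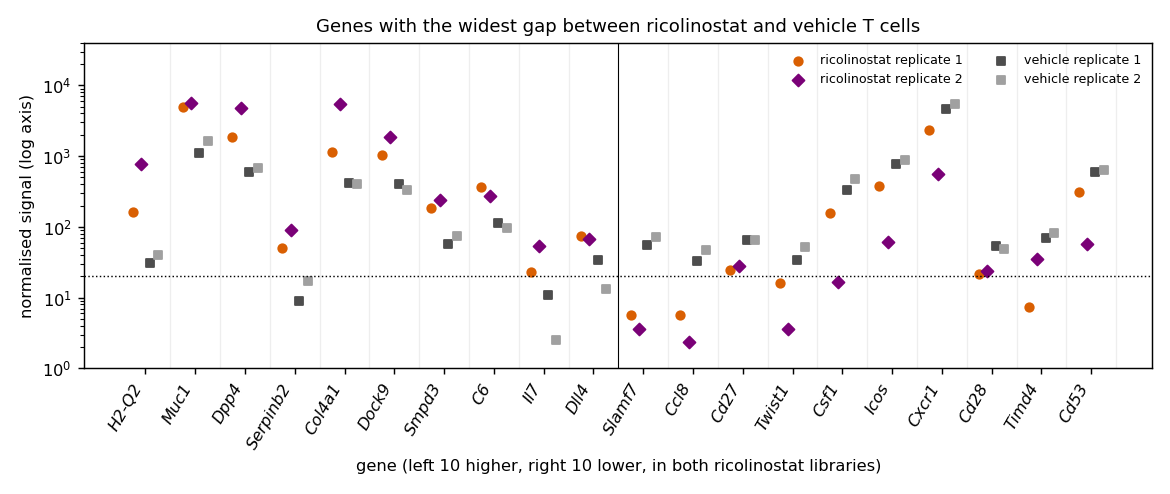
Normalised signal (log axis) in the 4 T cell libraries of the 10 genes with the widest upward and the 10 with the widest downward gap between the nearest ricolinostat and the nearest vehicle library; the dotted line marks a signal of 20. Cd27 and Cd28 lie together in both ricolinostat libraries, close to the dotted line, whereas Icos, Csf1 and Cd53 lie much lower in replicate 2 than in replicate 1.

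T cell genes were compared list by list. Of the 10 tested genes of the antigen receptor complex and its proximal kinases, all 10 were below the vehicle mean in replicate 1 (median -0.54) and 6 in replicate 2 (median -0.21). One member, Cd3eap, encodes a subunit of RNA polymerase I and is not a chain of the receptor complex. Both ricolinostat libraries were below both vehicle libraries in 6 and above in none, where 28.7% and 9.52% of all tested genes were so placed. Cd3d had 349 and 1159 in ricolinostat T cells, against 520 and 483 in vehicle T cells. Cd3e had 339 and 88.9 in ricolinostat T cells, against 432 and 563 in vehicle T cells. The 3 CD3 chains Cd3d, Cd3e and Cd3g form a single complex, and in replicate 1 their log2 differences from vehicle were alike, at -0.52, -0.54 and -0.51. In replicate 2 they lay at 1.21, -2.46 and -4.14. The kinase gene Lck had 299 and 467 in ricolinostat T cells, against 549 and 485 in vehicle T cells, and Zap70 had 88.5 and 572 in ricolinostat T cells, against 156 and 174 in vehicle T cells. Fyn, a related kinase that many other cells express, had 721 and 795 in ricolinostat T cells, against 933 and 1010 in vehicle T cells.

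The 13 tested genes of T cell surface and naive state were likewise all low in replicate 1, with 13 below the vehicle mean, a median of -0.65 and a range from -1.38 to -0.31. In replicate 2, 7 were below, and the range ran from -6.26 to 1.63. Both libraries were below both vehicle libraries in 7 and above in none, again beside 28.7% and 9.52% of all tested genes. Il7r, the receptor chain for interleukin 7, had 452 and 2836 in ricolinostat T cells, against 966 and 1054 in vehicle T cells. Spn, the leukocyte sialoglycoprotein CD43, had 1163 and 4483 in ricolinostat T cells, against 1453 and 1435 in vehicle T cells. Tcf7, a transcription factor of naive and stem-like T cells, had 563 and 9.57 in ricolinostat T cells, against 1034 and 635 in vehicle T cells.

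All 12 tested genes of CD8 and cytotoxic cells were below the vehicle mean in replicate 1 (median -0.61), and 10 in replicate 2 (median -0.71); 4 had both libraries below both vehicle libraries, a share near the 28.7% of all tested genes. Gzma, a serine protease of cytotoxic granules, had 83.3 and 9.57 in ricolinostat T cells, against 67.8 and 263 in vehicle T cells. Klrd1, the CD94 receptor of NK and CD8 cells, had 113 and 27.6 in ricolinostat T cells, against 150 and 246 in vehicle T cells. Ctsw, a protease of cytotoxic lymphocytes, had 408 and 568 in ricolinostat T cells, against 426 and 610 in vehicle T cells. For Gzma and Klrd1 the vehicle libraries themselves lay far apart.

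The 12 genes linked to regulatory T cells were all below the vehicle mean in replicate 1 (median -0.62), and 8 were in replicate 2 (median -1.29); both libraries were below both vehicle libraries in 6 (28.7% of all tested genes). In replicate 2, 3 were called higher and 6 lower, beside 32.2% and 27.3% of all tested genes. Foxp3, the lineage factor of regulatory T cells, had 21.2 and 16.8 in ricolinostat T cells, against 42.3 and 32.1 in vehicle T cells, close to the floor. Ctla4, their main inhibitory receptor, had 223 and 143 in ricolinostat T cells, against 322 and 502 in vehicle T cells. Il2ra, the high-affinity receptor chain for interleukin 2, had 190 and 359 in ricolinostat T cells, against 312 and 314 in vehicle T cells. The most abundant members of the list, Tgfb1 (8724 and 19832 in ricolinostat T cells, against 10367 and 11448 in vehicle T cells), Entpd1 and Nt5e, had levels in the macrophage libraries like those in T cells and so do not report on T cells alone.

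Of 13 activation genes, 11 were below the vehicle mean in replicate 1 (median -0.67) and 9 in replicate 2 (median -0.68), with both libraries below both vehicle libraries in 7 (28.7% of all tested genes). Il2rb, a signalling chain of the receptors for interleukins 2 and 15, had 420 and 1567 in ricolinostat T cells, against 543 and 758 in vehicle T cells, and Cd69, an early activation antigen, had 409 and 770 in ricolinostat T cells, against 530 and 661 in vehicle T cells. Of 11 inhibitory receptors and ligands, 10 were below in replicate 1 (median -0.54) and 6 in replicate 2 (median -0.80). Pdcd1, which encodes PD-1, had 221 and 741 in ricolinostat T cells, against 220 and 388 in vehicle T cells. Its ligand gene Cd274 had 6220 and 22334 in ricolinostat T cells, against 9286 and 9622 in vehicle T cells. Lgals3, a galectin abundant in macrophages, had 77425 and 40599 in ricolinostat T cells, against 103548 and 121864 in vehicle T cells. No gene of these 6 lists passed the pooled or the replicate 1 test. In replicate 1 the first 4 lists were also counted after rescaling: with libraries centred on their medians 9 of 10, 13 of 13, 12 of 12 and 11 of 12 genes were below, beside 391 of all 630, and after quantile normalisation 9, 13, 10 and 11, beside 348 of 630.

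**Figure D4:**
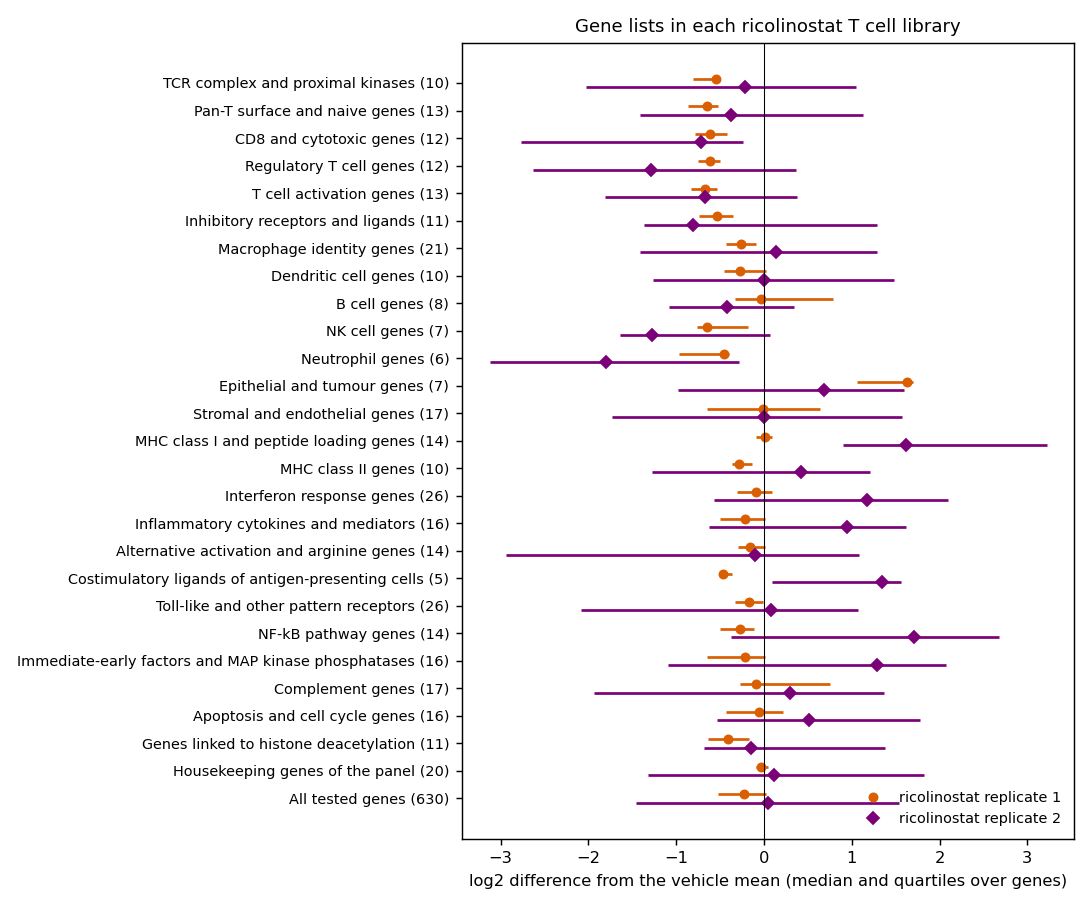
Median (points) and quartiles (lines) over the tested genes of each list of the log2 difference from the vehicle mean, for ricolinostat replicate 1 and replicate 2; the number of genes is in parentheses and the bottom line gives all 630 tested genes. In replicate 1 the 6 T cell lists, inhibitory receptors and ligands included, lie between -0.54 and -0.67, below the median of -0.23 over all genes. Lists of other cells lie below it too, with NK cell genes at -0.65, costimulatory ligands at -0.46 and neutrophil genes at -0.45. The epithelial list lies at 1.62.

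Markers of other cells were counted beside these T cell genes. All 7 tested epithelial and tumour genes were above the vehicle mean in replicate 1 (median 1.62, range from 0.54 to 1.87), and this count was 7 under every scaling tried. In replicate 2, 4 were above and 3 below (median 0.69). Cxcl15, a chemokine of lung epithelium, had 38939 and 4800 in ricolinostat T cells, against 10003 and 13529 in vehicle T cells, so that the ricolinostat libraries lay on opposite sides of vehicle. Cdh1, the epithelial cadherin, had 5776 and 2486 in ricolinostat T cells, against 3784 and 4182 in vehicle T cells. Epcam, an epithelial adhesion gene, had 3160 and 258 in ricolinostat T cells, against 1561 and 1562 in vehicle T cells. Muc1, Msln, Erbb2 and Il34 were above both vehicle libraries in both ricolinostat libraries. Msln, the surface protein mesothelin, had 630 and 431 in ricolinostat T cells, against 132 and 303 in vehicle T cells. Erbb2, a receptor kinase of epithelial growth, had 511 and 1981 in ricolinostat T cells, against 269 and 210 in vehicle T cells. The summed signal of the 8 measured markers was 54342 and 15883 in ricolinostat T cells, against 16970 and 21577 in vehicle T cells; 7 of the 8 were above 20 in every one of these libraries. The part of this epithelial RNA in the differences of other genes was not tested.

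Of the 21 macrophage identity genes, 18 were below the vehicle mean in replicate 1 (median -0.26, near that of all genes) and 9 in replicate 2 (median 0.14), and 20 or 21 of the 21 were above 20 in each library. Their summed signal was 1332410 and 995720 in ricolinostat T cells, against 1526120 and 1547290 in vehicle T cells. Spp1, the secreted protein osteopontin, had 51511 and 14118 in ricolinostat T cells, against 55562 and 96934 in vehicle T cells. Siglec1, a sialic acid receptor of tissue macrophages, had 1755 and 14522 in ricolinostat T cells, against 2083 and 2028 in vehicle T cells. Fcgr3, a receptor for antibody, had 9398 and 103 in ricolinostat T cells, against 12480 and 13302 in vehicle T cells. Replicate 1 was close to vehicle for Siglec1. Replicate 2 was far from vehicle in opposite directions for Siglec1 and Fcgr3, both members of this list.

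All 6 tested neutrophil genes were below the vehicle mean in both ricolinostat libraries, with medians of -0.45 and -1.80. The summed signal of the 11 measured genes was 5184 and 3947 in ricolinostat T cells, against 9841 and 8664 in vehicle T cells. S100a8, a calcium-binding protein of neutrophils, had 1915 and 2573 in ricolinostat T cells, against 4068 and 1767 in vehicle T cells, which overlap. Cd79a, a chain of the B cell receptor complex, was near the floor, at 3.60 at most in the 4 libraries. Cd22, listed with the B cell genes, had 1596 and 10863 in ricolinostat T cells, against 1835 and 2112 in vehicle T cells, and was as high in macrophages, at 2532 and 18821 under ricolinostat, against 2945 and 3148 under vehicle. Of the 7 tested NK cell genes 5 were below in each ricolinostat library (medians -0.65 and -1.27), and Itga2, an integrin that epithelial cells express as well, had 627 and 1588 in ricolinostat T cells, against 203 and 457 in vehicle T cells. Of 10 dendritic cell genes 7 were below in replicate 1 and 5 in replicate 2 (medians -0.28 and 0.00). Lamp3, a gene of mature dendritic cells and of lung epithelium, had 5945 and 1228 in ricolinostat T cells, against 1561 and 1803 in vehicle T cells. The 17 stromal and endothelial genes split evenly in both libraries (9 below in each, medians -0.01 and 0.00), with Fn1, which encodes fibronectin, at 7006 and 57548 in ricolinostat T cells, against 6218 and 11675 in vehicle T cells.

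Antigen presentation was examined next, because histone deacetylase inhibitors are known from other systems to raise it. Class I molecules carry peptides made by the immunoproteasome and pumped by the TAP transporter. In replicate 1 the 14 tested genes lay around vehicle, 6 below and 8 above, with a median of 0.02. In replicate 2, 13 were above and 1 below (median 1.62), and 8 were called higher and none lower against 32.2% and 27.3% of all tested genes. H2-D1, a classical class I gene, had 61599 and 130143 in ricolinostat T cells, against 65728 and 62277 in vehicle T cells, and H2-K1 had 22085 and 38241 in ricolinostat T cells, against 20014 and 22427 in vehicle T cells. Psmb8, an immunoproteasome subunit, had 5273 and 21609 in ricolinostat T cells, against 5046 and 5363 in vehicle T cells. Tap2 had 540 and 11602 in ricolinostat T cells, against 639 and 532 in vehicle T cells, while its partner Tap1 had 1106 and 2144 in ricolinostat T cells, against 958 and 1003 in vehicle T cells. Both ricolinostat libraries lay above both vehicle libraries in 4 of the 14 and below in none, beside 9.52% and 28.7% of all tested genes. With libraries centred on their medians, 10 were above the vehicle mean in replicate 1. Then 7 were above both vehicle libraries in both ricolinostat libraries, beside 91 of all 630. After quantile normalisation these counts were 11 and 7, beside 96 of 630 for the second. By the medians as deposited the excess was larger in replicate 2. H2-Q2 was the 1 member more than 1 log2 unit above vehicle in replicate 1.

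Class II molecules present peptides to CD4 T cells and are made by macrophages, dendritic cells and B cells. Of the 10 genes, 9 were below the vehicle mean in replicate 1 (median -0.29) and 5 in replicate 2 (median 0.42). H2-Aa, an alpha chain, had 107727 and 59029 in ricolinostat T cells, against 129204 and 154466 in vehicle T cells, and H2-Ab1, the beta chain it pairs with, had 40348 and 50418 in ricolinostat T cells, against 47525 and 57124 in vehicle T cells. Cd74, the invariant chain, had 119822 and 325460 in ricolinostat T cells, against 141810 and 181086 in vehicle T cells. H2-Eb1, a further beta chain, had 759 and 290877 in ricolinostat T cells, against 868 and 1063 in vehicle T cells. At 8.24 log2 units above the vehicle mean, it showed the largest rise of any tested gene in replicate 2, where it made up 5.55% of all signal, against 0.0228% in replicate 1 and 0.0236% and 0.0268% in vehicle T cells. H2-DMb2, a chain of the peptide editor H2-DM, lay on the other side, with 896 and 74.5 in ricolinostat T cells, against 1156 and 995 in vehicle T cells. Ciita, the coactivator of class II genes, had 292 and 129 in ricolinostat T cells, against 310 and 320 in vehicle T cells.

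Class II promoters carry short elements called the X and Y boxes, bound by the factors RFX and NF-Y and read by the CIITA protein. The promoters of H2-Eb1, H2-DMb1 and H2-DMb2 are shown because the same elements stand before genes on opposite sides of vehicle in replicate 2. The 200 bases before the annotated start are printed 5′ to 3′ on the gene's strand, from RefSeq on GRCm38.p6: chr17:34305667-34305866 for H2-Eb1, chr17:34152991-34153190 for H2-DMb1 and chr17:34145049-34145248 for H2-DMb2, all on the plus strand. Capitals mark GATTGG, a core of the Y box, and GATGATGCT, a core of the X box, searched on both strands; the letters do not overlap, and both were chosen after the sequences and values were seen.
H2-Eb1: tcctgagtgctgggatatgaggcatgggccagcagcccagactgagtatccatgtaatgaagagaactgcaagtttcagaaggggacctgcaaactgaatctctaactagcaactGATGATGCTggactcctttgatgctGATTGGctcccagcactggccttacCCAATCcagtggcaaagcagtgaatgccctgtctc
H2-DMb1: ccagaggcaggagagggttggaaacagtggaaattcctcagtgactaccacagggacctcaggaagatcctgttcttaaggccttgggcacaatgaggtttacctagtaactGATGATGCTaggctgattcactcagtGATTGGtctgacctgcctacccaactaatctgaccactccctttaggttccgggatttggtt
H2-DMb2: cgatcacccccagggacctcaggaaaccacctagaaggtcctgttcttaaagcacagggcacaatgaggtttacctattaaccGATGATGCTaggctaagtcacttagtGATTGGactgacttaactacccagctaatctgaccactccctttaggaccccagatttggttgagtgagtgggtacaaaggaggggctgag

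GATTGG occurs in 12.9% and GATGATGCT in 0.174% of the 32851 mouse promoters in the table, and both together in 6 of them, 3 of which are those printed. H2-DMb1, with both motifs, had 301 and 572 in ricolinostat T cells, against 271 and 350 in vehicle T cells. The 3 genes thus share both motifs and lay 8.24, 0.89 and -3.83 log2 units from vehicle in replicate 2, against -0.34, -0.03 and -0.26 in replicate 1. Of the 10 measured class II genes, 6 matched the promoter table. Among the matched genes not printed, H2-Aa and H2-Ob had GATTGG without GATGATGCT, and Ctss had neither.

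Among 26 tested interferon response genes, 16 were below the vehicle mean in replicate 1 (median -0.09) and 8 in replicate 2 (median 1.17). In replicate 2, 9 were called higher and 4 lower, beside 32.2% and 27.3% of all tested genes, so that the higher count is near the overall share. Ifi27 had 2607 and 13534 in ricolinostat T cells, against 2559 and 2313 in vehicle T cells, and Ifitm2, a membrane protein that restricts virus entry, had 3695 and 13390 in ricolinostat T cells, against 3142 and 2703 in vehicle T cells. Stat2, which carries the signal of type I interferons, had 766 and 13.2 in ricolinostat T cells, against 862 and 790 in vehicle T cells. Isg20, an antiviral exonuclease, was among the few that were alike in both ricolinostat libraries, at 461 and 485, against 260 and 278 in vehicle T cells.

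All 14 genes of the NF-kB pathway, the signalling route of inflammatory receptors, were below the vehicle mean in replicate 1 (median -0.28, against -0.23 over all genes), and the count was 11 after centring. In replicate 2, 9 were above, 8 were called higher and 1 lower (median 1.71), beside 32.2% and 27.3% of all tested genes. Nfkbia, the inhibitor that the pathway induces, had 1934 and 10395 in ricolinostat T cells, against 1884 and 2294 in vehicle T cells. Nfkb2 had 1084 and 8982 in ricolinostat T cells, against 1119 and 1492 in vehicle T cells. Tnfaip3, an enzyme that ends the signal, had 3364 and 3200 in ricolinostat T cells, against 4606 and 6112 in vehicle T cells, and was thus alike in the ricolinostat libraries and below vehicle in both. Rel, the subunit prominent in lymphocytes, had 1280 and 1942 in ricolinostat T cells, against 2330 and 2967 in vehicle T cells.

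Immediate-early genes are the first to be transcribed after a stimulus. Fos had 22771 and 101222 in ricolinostat T cells, against 22489 and 21631 in vehicle T cells, whereas its dimer partner Jun had 5031 and 514 in ricolinostat T cells, against 5048 and 5058 in vehicle T cells. Replicate 1 lay 0.05 log2 units from the vehicle mean in Fos and -0.01 in Jun. Egr1 had 3038 and 12460 in ricolinostat T cells, against 2334 and 2519 in vehicle T cells, and the phosphatase gene Dusp6 had 6156 and 16689 in ricolinostat T cells, against 5169 and 4984 in vehicle T cells. Dusp4, a phosphatase of the same family, had 1223 and 1242 in ricolinostat T cells, against 612 and 686 in vehicle T cells, a nearly equal excess in both libraries. Over the 16 tested members 12 were below the vehicle mean in replicate 1 (median -0.21) and 6 in replicate 2 (median 1.29), where 9 were called higher and 4 lower, beside 32.2% and 27.3% of all tested genes.

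Of 16 inflammatory mediators 11 were below vehicle in replicate 1 (median -0.22) and 5 in replicate 2 (median 0.94). Il1b had 5126 and 41175 in ricolinostat T cells, against 4737 and 6321 in vehicle T cells, and the related cytokine gene Il18 had 18501 and 1834 in ricolinostat T cells, against 20239 and 21246 in vehicle T cells. Ccl3, a chemokine for monocytes and T cells, had 4485 and 26025 in ricolinostat T cells, against 6259 and 6592 in vehicle T cells. All 5 tested costimulatory ligands were below vehicle in replicate 1 (median -0.46), and 4 were above in replicate 2 (median 1.34). Cd86, a ligand of CD28, had 611 and 2710 in ricolinostat T cells, against 880 and 954 in vehicle T cells, and Cd80 had 870 and 4068 in ricolinostat T cells, against 978 and 1522 in vehicle T cells. Among 14 genes of alternative activation and arginine use, Arg1, which breaks down arginine, had 575 and 20.4 in ricolinostat T cells, against 661 and 639 in vehicle T cells, while Mrc1, the mannose receptor, had 18118 and 21205 in ricolinostat T cells, against 19227 and 19394 in vehicle T cells.

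Of 11 tested genes linked to histone deacetylation, either as subunits and acetyltransferases or as genes reported to respond to its inhibitors, 10 were below vehicle in replicate 1 (median -0.41) and 6 in replicate 2 (median -0.15). Cdkn1a, the cell cycle inhibitor p21 and a gene that such inhibitors commonly induce in cultured cells, had 4183 and 5723 in ricolinostat T cells, against 6285 and 7142 in vehicle T cells, below vehicle in both libraries. Runx1, a transcription factor of blood cells, had 4892 and 6019 in ricolinostat T cells, against 7020 and 7496 in vehicle T cells. Stat3 had 4712 and 14054 in ricolinostat T cells, against 4878 and 4971 in vehicle T cells. The acetyltransferase genes Crebbp and Ep300 had 1861 and 2118, and 1327 and 4663, in ricolinostat T cells, against 2240 and 2468, and 1582 and 1509, in vehicle T cells.

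Of the 16 largest differences of replicate 1, replicate 2 lay on the same side of the vehicle mean in 8 and on the other side in 8. The first 8 were H2-Q2, Serpinb2, Il7, Slamf7, Timd4 and Ccl8, described above, with Gata3 and Ccl21a. Cd34, a marker of endothelium and progenitors, had 420 and 16.8 in ricolinostat T cells, against 113 and 57.5 in vehicle T cells. Tdo2, which degrades tryptophan, had 304 and 27.6 in ricolinostat T cells, against 50.2 and 108 in vehicle T cells, and Pla2g1b, a secreted phospholipase, had 495 and 103 in ricolinostat T cells, against 105 and 155 in vehicle T cells. In all 3, replicate 1 lay above both vehicle libraries and replicate 2 below both. Downwards, Il11ra1 had 1 and 183 in ricolinostat T cells, against 34.5 and 15.2 in vehicle T cells, and Ifitm1 had 17.8 and 323 in ricolinostat T cells, against 150 and 80.8 in vehicle T cells. Gfi1, a repressor of lymphoid and myeloid genes, had 10.9 and 129 in ricolinostat T cells, against 42.3 and 40.6 in vehicle T cells. Gata3, the factor of T helper 2 cells, had 43.6 and 60 in ricolinostat T cells, against 314 and 78.7 in vehicle T cells, where the vehicle libraries themselves were far apart. The low genes Il24, Klra4 and Ccl21a reached at most 48.8 in these 4 libraries.

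Among the largest differences of replicate 2, upwards after H2-Eb1 came Nlrp3, a sensor of the inflammasome, with 2415 and 117577 in ricolinostat T cells, against 3580 and 4550 in vehicle T cells. Hcst, the adaptor DAP10 of the receptor NKG2D, had 309 and 13376 in ricolinostat T cells, against 492 and 430 in vehicle T cells. The kinase gene Tyk2 had 363 and 12147 in ricolinostat T cells, against 520 and 487 in vehicle T cells, and Cd99, an adhesion molecule, had 1560 and 43104 in ricolinostat T cells, against 1762 and 1839 in vehicle T cells. Runx3, a factor of CD8 T cells, had 19.5 and 1030 in ricolinostat T cells, against 16.9 and 82.9 in vehicle T cells. Replicate 1 did not exceed the vehicle mean in any of these 5 genes.

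Downwards, Ceacam1, an inhibitory adhesion receptor, had 923 and 2.36 in ricolinostat T cells, against 747 and 817 in vehicle T cells, 7.86 log2 units below vehicle in replicate 2 and 0.24 above it in replicate 1. Cxcl1, a chemokine for neutrophils, had 739 and 3.60 in ricolinostat T cells, against 428 and 466 in vehicle T cells. Lbp, which binds bacterial lipopolysaccharide, had 1222 and 9.57 in ricolinostat T cells, against 465 and 390 in vehicle T cells. These 3 genes were thus above vehicle in replicate 1 and near the floor in replicate 2. Smad2, which carries TGF-beta signals, had 326 and 3.60 in ricolinostat T cells, against 361 and 356 in vehicle T cells, and Nfatc3, a factor that T cell receptor signals activate, had 539 and 13.2 in ricolinostat T cells, against 768 and 733 in vehicle T cells. Set directly against each other in the same limma fit, the ricolinostat libraries gave 342 calls among the 630 genes (54.3%), 195 higher and 147 lower in replicate 2. This sets 1 library against 1 of the same treatment, and the spread it uses comes entirely from the vehicle and JQ1 libraries.

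The last comparison asked how far the differences belonged to T cells, by setting them beside macrophages of the same treatments, which have their own vehicle libraries. In the fit over all 12 libraries limma called no gene of 659 for a difference between the ricolinostat effects in T cells and in macrophages (0%, 12 with an unadjusted p under 0.05, smallest adjusted p 0.468), and without macrophage ricolinostat replicate 1 it called 4 higher and 1 lower. The median SE of that difference was 1.23, so most differences could not be seen. The departure of replicate 2 was present in both cell types. Across all 630 tested genes, the difference from vehicle in T cells correlated with that in macrophages at Pearson r = 0.810 in replicate 2, with the same sign in 535 genes, and at 0.236 in replicate 1, with the same sign in 369. Across the 401 tested genes with a signal over 100 in all 4 vehicle libraries, the correlation in replicate 2 was r = 0.959, with the same sign in 378 genes. For the 20 housekeeping genes r was 0.978. For replicate 1 the values were 0.481 with 240 of 401 signs shared, and 0.074 for the housekeeping genes. These correlations are across genes and describe the libraries, and the replicate 2 libraries also share running numbers, 33 and 34, that stand apart from the 8 to 21 of all others.

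H2-Eb1 had 912 and 402722 in ricolinostat macrophages, against 457 and 848 in vehicle macrophages, and Tubb5 had 5495 and 174039 in ricolinostat macrophages, against 5174 and 6001 in vehicle macrophages. In both genes only replicate 2 stood far above vehicle, as in T cells. Over all 770 genes, replicate 2 of ricolinostat T cells had a Spearman correlation of 0.928 with replicate 2 of ricolinostat macrophages, and of at most 0.861 with the other 10 libraries. Taking the macrophage difference away from the T cell difference brought the SD over the 401 genes to 0.879 in replicate 2, against 2.17 for T cells alone. In replicate 1 the SD was 0.399 after the subtraction and 0.400 before it. Over all 630 genes, low ones included, the SD after the subtraction was 1.56 in replicate 2, against 2.14 before it, and 0.884 in replicate 1, against 0.684 before it. In replicate 2 the T cell difference minus the macrophage difference was 4.36 for Rrad, a small GTPase, and 3.04 for Ctsw. Neither was above vehicle by much in T cells (-0.21 and 0.16), and both were far below it in macrophages (-4.57 and -2.89). Nfatc3 had -2.09 after the subtraction, from -5.73 in T cells and -3.64 in macrophages. These 3 genes were chosen after their values were seen and had -0.45, -0.17 and -0.51 in replicate 1.

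**Figure D5:**
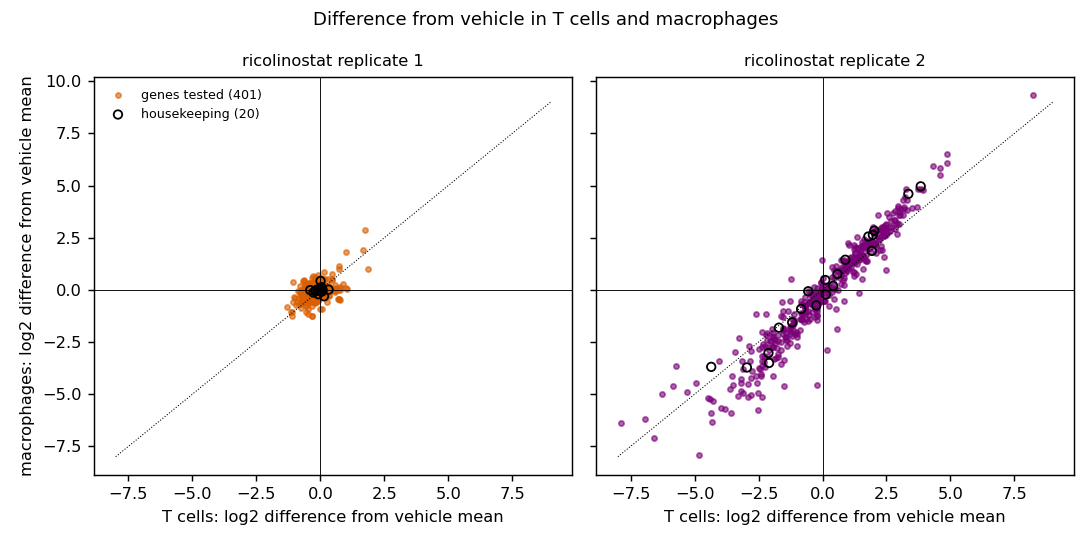
Log2 difference from the vehicle mean in T cells (x axis) and macrophages (y axis) for 401 genes with a signal over 100 in all 4 vehicle libraries, and for the 20 housekeeping genes (open circles), in ricolinostat replicate 1 and replicate 2; the dotted line marks equal differences. The points of replicate 2 lie in a narrow band (Pearson r = 0.959) steeper than the line, with a fitted slope of 1.20. The SD along the T cell axis was 2.17, against 0.400 in replicate 1.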

How the data were processed

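The authors deposited normalised signals, 1 for each gene in each library. Their values show a linear scale, and how they were normalised is not stated in the sources used here. Low values lay on a lattice whose step, the signal of 1 count, gave the depth (1.73 and 3.61 signal per count in ricolinostat T cells, against 1.96 and 2.12 in vehicle T cells), so few counts set the precision of low genes. Replicates were numbered in record order. The labels do not say whether a group's libraries come from separate mice, so p-values cover only the spread between libraries, part of which may be technical. Differences of log2(signal + 1) from the deposited signals entered two-sided tests in limma 3.58.1 (R 4.3.3) at an adjusted p of 0.05, and the fits were checked on simulated data. A group whose libraries were all at or below 20 was set to 20, and the fold is then a bound. Of 770 symbols, 754 matched a GRCm38.p6 table directly and 10 more by synonym or case. Members and the 26 gene lists were chosen with earlier results of these data known. Named genes were the 10 widest gaps in each direction, the 8 largest differences of each library in each direction, the housekeeping genes and the 2 to 4 most abundant members of each list. Other genes were chosen after their values were seen, namely Arg1, Cd3e, Cd3eap, Cd79a, Ciita, Crebbp, Ctla4, Dusp4, Ep300, Epcam, Erbb2, Foxp3, H2-Ab1, H2-DMb1, H2-DMb2, Il2ra, Il34, Isg20, Jun, Lck, Msln, Rel, Rrad, Siglec1, Tap1 and Zap70. Alternatives covered the filter, pseudocount, scaling, variance model, weights and left-out libraries; the lists were rescaled library by library after the data were seen. Figures used matplotlib 3.10.9.

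The labels state no pairing. Pairs of a T cell and a macrophage library were inferred from the order of the running numbers in the titles. Deviations from the group means correlated within these pairs at 0.790 under ricolinostat, 0.135 under vehicle and 0.250 under JQ1 over 659 genes. The ricolinostat value includes the departing replicate 2 libraries, so it does not establish a pairing. The inferred pairs formed a replicate block in an added fit only.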

Additional observations from a re-analysis of the deposited data

Results flagged for a closer look

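Only the named genes, not all tested genes, were searched for opposite directions in T cells and macrophages. Cd27 and Cd28 had been named for their low values in ricolinostat T cells, and Tcf7 for its low value in replicate 2, so that part of the pattern was selected. In 4 of the named genes both ricolinostat T cell libraries lay below both vehicle ones, while both ricolinostat macrophage libraries lay above both vehicle ones. The difference between these effects was tested in the fit over all 12 libraries and passed for none of them. Cd27 had 40.2 and 23.6 in ricolinostat macrophages, against 2.90 and 5.03 in vehicle macrophages, and its effect in T cells minus that in macrophages was -4.02 (SE 0.786, adjusted p = 0.468 by limma). Cd28 had 15.6 and 7.41 in ricolinostat macrophages, against 2.90 and 5.03 in vehicle macrophages, all below the floor of 20, and gave -2.44 (adjusted p = 0.999 by limma). Tcf7 was at most 7.41 in these macrophage libraries and gave -3.96 (adjusted p = 0.999 by limma). For Cd28 and Tcf7 the macrophage part of the difference thus lies wholly below the floor and is not resolved. Blnk, an adaptor of B cell receptor signalling, had 154 and 190 in ricolinostat T cells, against 226 and 193 in vehicle T cells, and 40.2 and 38.4 in ricolinostat macrophages, against 22.4 and 5.03 in vehicle macrophages, with a difference of -2.05 (adjusted p = 0.999 by limma). In T cells Blnk was separated only by 190 against 193. The values of 2.90 and 5.03 in vehicle macrophages, which also enter for Cd27 and Blnk, equal the signal of a single count in those libraries. Without both replicate 2 libraries of ricolinostat the differences between the effects were -4.47 for Cd27, -3.02 for Cd28, -0.85 for Tcf7 and -2.23 for Blnk.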

How the results depend on the processing

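With ricolinostat replicate 1 left out, the pooled comparison gave 203 higher and 172 lower genes; over all 6 libraries left out in turn the counts ranged from 0 to 203 and from 0 to 172. Leaving out ricolinostat replicate 1 turns the pooled comparison into the fit of replicate 2 alone against vehicle, so it is no separate result. The 9 other settings kept 0 calls by limma in each direction, with 4 to 26 unadjusted p under 0.05. Replicate 1 against vehicle stayed at 0 calls under the 4 left-out libraries and the 7 other settings, with 34 to 94 unadjusted p under 0.05. Replicate 2 against vehicle ranged from 92 to 210 higher and from 89 to 190 lower when a vehicle or JQ1 library was left out (92 and 89 without vehicle replicate 1, 105 and 91 without vehicle replicate 2), and from 170 to 224 higher and from 155 to 187 lower under the 7 others. The ricolinostat libraries against each other gave 132 to 199 higher and 99 to 157 lower without a library. The T cell effect minus the macrophage effect ranged from 0 to 4 higher and from 0 to 1 lower (4 and 1 without macrophage ricolinostat replicate 1, 1 lower without T cell ricolinostat replicate 1). With T cells and macrophages paired as a replicate block it had 0 calls (53 unadjusted p under 0.05), and without both replicate 2 libraries also 0 (28 unadjusted). No paired analysis was possible for the T cell comparisons because no number in the labels pairs treatments.

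Of 87 named genes in the pooled comparison, Cxcl15 turned round: its log2 difference was 0.23 and became -1.28 (adjusted p = 0.0244) without replicate 1, and ranged from -1.28 to 1.74 over the libraries left out. Without replicate 1 the fit is that of replicate 2 alone against vehicle, and other named genes that became calls there are calls of replicate 2. With 2 libraries a group, 1 of which departs in its housekeeping genes, the pooled values rest on replicate 2 and the direction of many lists turns with it: the median of the NF-kB list was 0.68 with both libraries and -0.28 without replicate 2, that of the interferon list 0.51 and -0.09, and that of the class II list 0.05 and -0.29. Genes near a signal of 20 rest on few counts. The median SE of 0.731 is no limit of detection, since changes well above it, such as that of H2-Q2, also gave no call.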

Other observations

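Of 26 tested pattern receptors and adaptors, 20 were below the vehicle mean in replicate 1 (median -0.18) and 12 in replicate 2 (median 0.09), where 8 were called higher and 9 lower, near the 32.2% and 27.3% of all tested genes. Tlr4, the receptor for bacterial lipopolysaccharide, had 2617 and 92.5 in ricolinostat T cells, against 2594 and 2722 in vehicle T cells, while Cd14, its co-receptor, had 10942 and 35970 in ricolinostat T cells, against 12736 and 17005 in vehicle T cells. Clec7a, the beta-glucan receptor Dectin-1, had 43949 and 10842 in ricolinostat T cells, against 48425 and 57558 in vehicle T cells.

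Of 17 complement genes, 10 were below vehicle in replicate 1 (median -0.09) and 8 in replicate 2 (median 0.29). C3, the central component, had 3774 and 15982 in ricolinostat T cells, against 3375 and 4814 in vehicle T cells, and its receptor gene C3ar1 had 1529 and 19727 in ricolinostat T cells, against 3295 and 3081 in vehicle T cells. Of 16 genes of apoptosis and the cell cycle, 4 were above both vehicle libraries in both ricolinostat libraries and 4 below, beside 9.52% and 28.7% of all tested genes. The death receptor gene Tnfrsf10b had 121 and 352 in ricolinostat T cells, against 48.2 and 72.3 in vehicle T cells, and the cyclin gene Ccnd3 had 513 and 799 in ricolinostat T cells, against 359 and 326 in vehicle T cells. Bax, which opens the mitochondrial membrane, had 540 and 139 in ricolinostat T cells, against 627 and 684 in vehicle T cells. Trp53, a gene of the tumour model, had 225 and 2569 in ricolinostat T cells, against 332 and 324 in vehicle T cells. Tlr4, Tnfrsf10b, Ccnd3, Bax and Trp53 were chosen after their values were seen.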
